A study of Mus musculus with 8 samples.

Results

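The response of maternal liver to food restriction (FR) was set against that of fetal liver, gene by gene, as the FR over control log2 ratio in the mother minus the same ratio in the fetus. All 8 arrays of the series entered the comparison: the 2 arrays of the maternal pools and the 6 arrays of the fetal pools, chosen by tissue from their titles. The animals were C57BL/6J mice. Pregnant females of the FR group received 50% of the chow eaten by the control group from gestation day 10 to 17, while control females ate freely, and livers were taken on the morning of gestation day 18. Per the labels, livers came from 6 mothers per diet and from 2 male fetuses of each mother. RNA was pooled from 6 mothers, from 6 fetuses or from 3 fetuses, and each 2-colour array carried RNA of both diets, 1 per dye, with the dyes exchanged on a second array. This gave 1 maternal pool pair and 3 fetal pool pairs (1 of pools of 6 animals, 2 of pools of 3), each measured on 2 arrays. The maternal pair and the fetal pools of 6 shared slide 1, and the fetal pools of 3 were on slide 2. The labels do not say whether the fetal pools of 6 and of 3 hold different animals.

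During a fast the adult liver releases glucose, oxidises fatty acids and lowers lipid synthesis under glucagon, glucocorticoids and the nuclear receptor PPARA, and meal timing sets the phase of its circadian clock. In late pregnancy the maternal liver also enlarges and its cells divide. The fetal liver receives its glucose through the placenta, begins to express gluconeogenic enzymes only around birth, and is at this stage also a blood-forming organ with many erythroid and myeloid precursors. Per the labels, maternal livers were collected so that they could be compared with the fetal ones.

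The marker genes went with the labels. Xist, expressed from the inactive X chromosome of females, had a log2 control level of 12.96 in the mothers and 6.23 to 6.54 in the fetal pools. The Y-linked gene Ddx3y had 6.14 in the mothers and 11.30 to 11.38 in the fetuses. Afp, the fetal plasma protein alpha-fetoprotein, had 7.85 and 17.02 to 17.14. Alb, the hepatocyte product albumin, was as bright in the mothers (17.21) as in the fetal pools (17.27 to 17.56). Between 65.9% and 86.3% of the spots were well above background in both channels on an array, the lowest share being on a maternal array. The number of pool pairs limits the precision.

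Of 17669 genes measured in both tissues, 764 differed between the maternal and the fetal response (4.32%, adjusted p under 0.05 in limma with Benjamini-Hochberg adjustment over all genes). The maternal value lay above the fetal mean for 379 of them (2.14%) and below it for 385 (2.18%). In the maternal pair 1802 genes had a mean past 1.5-fold and the same sign on both arrays. By the same rule the fetal pool of 6 had 1052 genes and the pools of 3 had 1643 and 721. In 926 genes the mean of the 3 fetal pairs was past 1.5-fold with the same sign in all 3, a stricter rule than that of a single pair. Both the maternal rule and this one were met by 434 genes, which is 24.1% of the maternal and 46.9% of the fetal ones; 413 of the 434 went the same way in mother and fetus, 160 of them higher and 253 lower. Across genes the maternal values correlated with the fetal pairs at r of 0.48 (pool of 6), 0.47 and 0.43 (pools of 3), a description over 17669 genes that are not independent. On the log2 scale used here, 1 stands for a 2-fold change.

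Only the 3 fetal pairs supply the spread of the test, and the lone maternal pair is assumed to vary like them, so the p-values say nothing of variation between mothers. All 764 genes had the same sign within slide 1, where the mother was set against the fetal pools of 6 only, and 701 of them were past 1.5-fold there. That contrast reuses the maternal pair and a fetal pair that gave the calls, so agreement in sign is no independent check. The fit with slide as a block reuses the same pool pairs too. With slide as a block, however, no gene passed the adjusted threshold, although 2287 had an unadjusted p under 0.05, all 764 genes among them. Without the fetal pools of 6 the count was also 0, with 3029 genes at an unadjusted p under 0.05. The fetal pool of 6 lay between the pools of 3 for 41.4% of genes, whereas the pools of 3 held the middle place for 29.6% and 29.0%. Whether the pools share animals cannot be told from the labels, and if they do the p-values are too small. Feature Extraction had marked spots as non-uniform almost only on slide 1, at 82.7% to 90.7% of the brightest 10% of spots in Cy3, against at most 0.05% on slide 2. With those spots left out, 12159 genes could be tested and 209 were called. Of the 764 calls, 386 were still tested, 197 of these were called again, and 21 of the 386 had the other sign. Of the 245 still read from the same probe, 171 were called.

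The called genes were sorted by size. A response was a mean change of at least 1.5-fold with the same sign on both maternal arrays or in all 3 fetal pairs, and a tissue was taken as quiet under 1.2-fold. The counts of maternal and fetal responses rest on different numbers of pool pairs and are not set against each other. The mother-only group held 374 genes, 170 higher (0.962% of the genes tested) and 204 lower (1.15%) in FR. The fetus-only group held 53, 22 higher (0.125%) and 31 lower (0.175%). Opposite directions were found for 18, 10 higher in the mother (0.0566%) and 8 lower (0.0453%). A further 37 called genes had responses of the same direction and unequal size (0.209%), 376 shared genes did not differ past the threshold (2.13%), and 282 called genes met none of these rules (1.60%). The probes of 6 of the genes described here lay, in the mm9 coordinates of the slide 1 files, at chr7:14811313-14811372 (Sult2a6), chr2:11393579-11393638 (Pfkfb3), chr17:71598998-71599057 (Lpin2), chr4:61744500-61744548 (Mup3), chr4:133047040-133047099 (Trnp1) and chr19:44381024-44381083 (Scd2). The counts follow the chosen sizes: with a response set at 2-fold they were 148 mother-only, 20 fetus-only and 1 opposite.

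**Figure D1:**
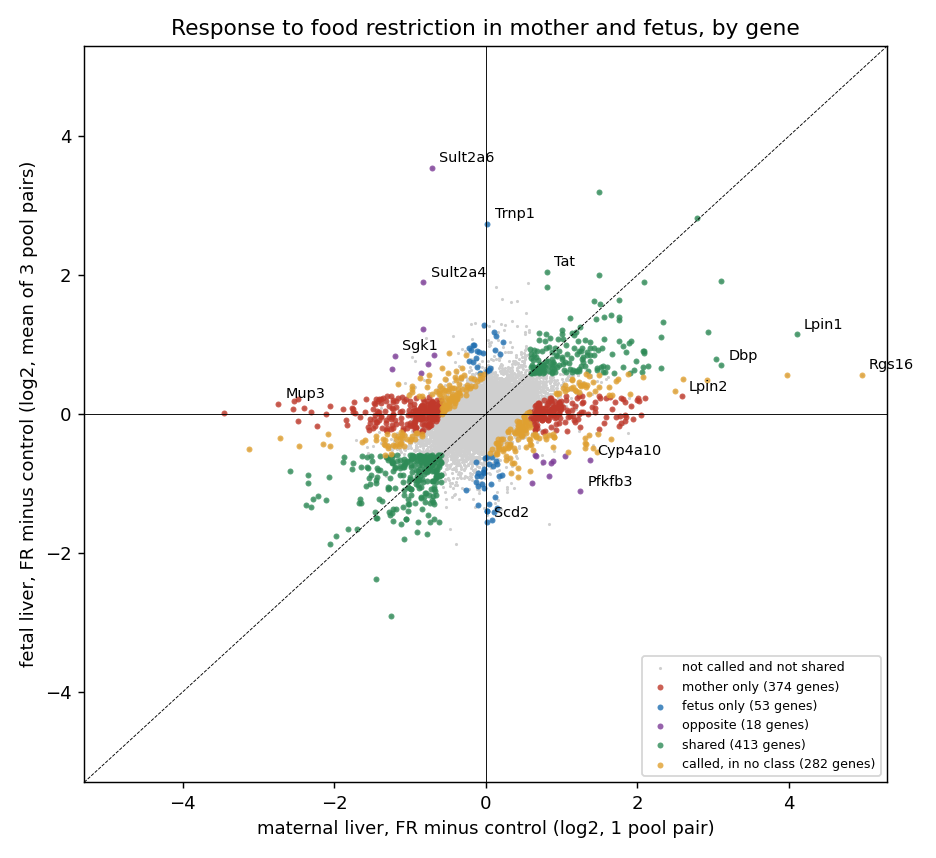
Each point is a gene; the x axis is the maternal FR minus control value (log2, 1 pool pair) and the y axis the fetal mean (log2, 3 pool pairs), coloured by group, with the dashed line marking equal responses. The 374 mother-only genes spread along the x axis, the 53 fetus-only genes along the y axis, and the 18 opposite genes lie in the upper left and lower right corners, with Sult2a6, Sgk1, Pfkfb3 and Cyp4a10 among them.

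The largest opposite difference was that of Sult2a6, lower in the mother and higher in the fetus. Sult2a6, of the sulfotransferase family that sulfates steroids and bile acids, was below control on both maternal arrays (-0.95 and -0.48) and above it in the fetal pools of 6 (3.58) and of 3 (2.86 and 4.19). The fetal values were all far above the maternal ones, with a difference of -4.26 ± 0.49 (SE, adjusted p = 0.0222), and -4.29 within slide 1. Its control level was 14.88 in the mother and 6.98 in the fetus, so the fetal value starts from a dim signal. Sult2a4 of the same family had the same signs, at -0.82 in the mother and 1.90 ± 0.37 (SD, n = 3) in the fetus. Members of this family have near-identical sequences and their probes may not tell them apart.

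Sgk1, a kinase induced by glucocorticoids and mineralocorticoids that promotes sodium transport, was at -1.39 and -1.02 on the maternal arrays and at 0.88, 0.97 and 0.68 in the fetal pairs. The rule for the opposite group sets the tissues on different sides of 0, and the difference was -2.04 ± 0.14 (SE). Cnksr3, a scaffold protein of the same sodium transport pathway, was at -0.68 in the mother and 0.85 ± 0.26 (SD, n = 3) in the fetus, and its 3 probes gave the same signs. E2f2, a transcription factor of the cell cycle, was at -1.24 in the mother and at 0.74, 0.94 and 0.24 in the fetal pairs. Gadd45a, a stress-induced growth arrest gene, was at -0.86 and 0.60, and Cyp2b9, a cytochrome P450 of the drug-inducible 2b family, at -0.76 and 0.73. A dimmer Cyp2b9 probe gave -0.70 and 0.16. Klhl13, a substrate adaptor of a ubiquitin ligase, was at -0.82 and 1.22, but its dimmer probe gave -0.07 and 0.20.

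In the other direction, Pfkfb3, which makes fructose 2,6-bisphosphate and so drives glycolysis, was above control on both maternal arrays (1.09 and 1.41) and below it in every fetal pair (-1.33, -0.98 and -1.01). The fold was 2.37 upward in the mother and 2.16 downward in the fetus, a difference of 2.36 ± 0.17 (SE, adjusted p = 0.01), and 2.58 within slide 1. A dimmer probe of the gene gave 0.02 and -0.40. Eno1, the glycolytic enolase, showed the same pair of directions with little spread, at 0.66 in the mother and -0.63, -0.60 and -0.57 in the fetal pairs. Cyp4a10, a fatty acid omega-hydroxylase and a classical PPARA target, was at 1.85 and 0.91 on the maternal arrays and at -0.69, -1.10 and -0.20 in the fetal pairs. All 4 of its probes agreed in sign in both tissues, and its difference of 2.04 ± 0.34 (SE) passed at an adjusted p of 0.0455.

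Trib1, a pseudokinase that restrains hepatic lipogenesis, was at 0.42 and 1.08 in the mother and at -0.68, -0.91 and -0.47 in the fetus. Lpcat3, which builds polyunsaturated phospholipids, had maternal values of 0.30 and 1.01 and a fetal mean of -0.59. Itpka, an inositol trisphosphate kinase, and Tmem9, a lysosomal membrane protein, had maternal values of 0.86 and 0.88 and fetal means of -0.71 and -0.68, though a second Tmem9 probe gave 0.03 in the mother. Stbd1, a glycogen-binding protein, was at 1.05 and -0.60, but its other probes gave fetal values of 0.49 and 0.52. Its opposite sign and the size of its difference therefore rest on a single probe. Retnlg, a resistin-like product of neutrophils, was at 0.61 in the mother, where it was dim (control level 7.55), and -0.99 in the fetus. It belongs to the granulocyte markers, whose 13 measured members had a median of 0.03 in the mother and -0.52 in the fetus. In pooled tissue, fewer cells of a type and less RNA per cell cannot be told apart.

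**Figure D2:**
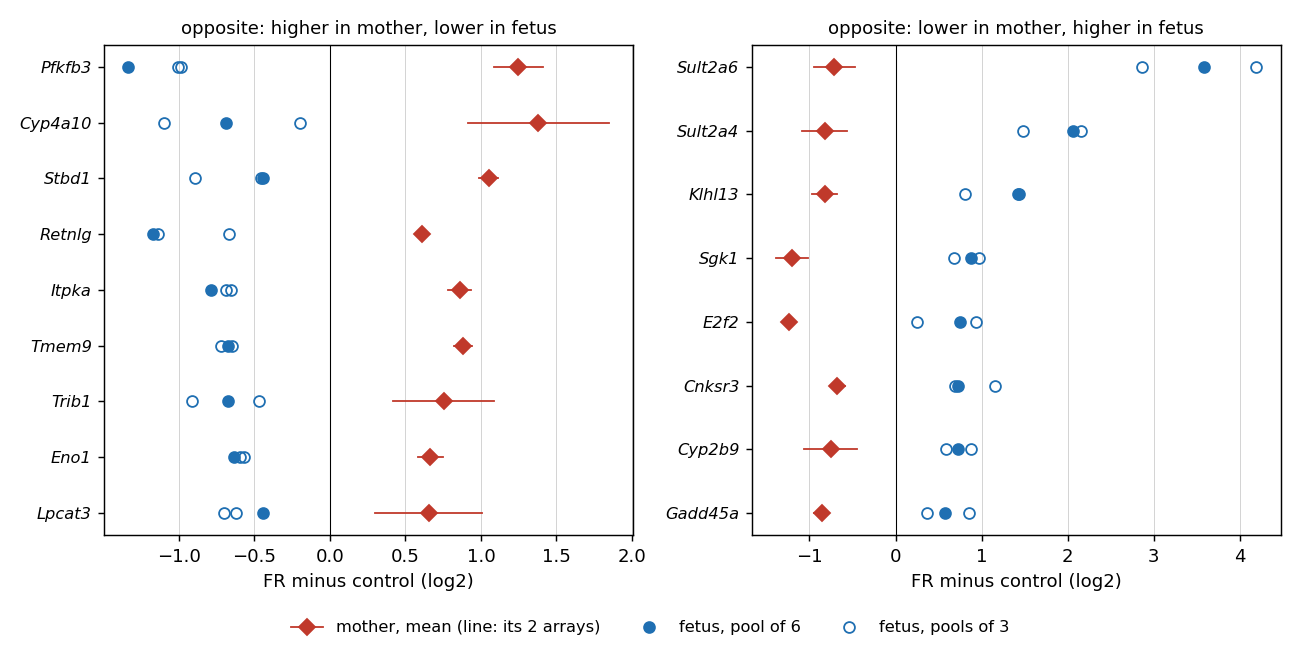
Each row is a gene of the opposite group; the x axis is FR minus control (log2). The red diamond is the maternal mean with a line joining its 2 arrays, the filled blue circle the fetal pool of 6 and the open circles the fetal pools of 3. The 1 opposite transcript without a gene symbol is not drawn. For all 17 genes shown, the maternal arrays and the fetal pairs lie on different sides of 0, which the rule for this group requires.

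Among mother-only genes that were higher in FR, Lpin2 had the largest difference. It encodes lipin 2, a phosphatidate phosphatase of triglyceride synthesis and transcriptional coactivator. Its values were 2.78 and 2.39 on the maternal arrays and 0.19, 0.43 and 0.14 in the fetal pairs, a difference of 2.33 ± 0.14 (SE, adjusted p = 0.00914). The maternal arrays were about 6.01-fold above control on average and the fetal pools close to it, although the gene was bright in both (control levels 12.40 and 13.51). Its other 4 probes gave maternal values from 0.93 to 2.60 and fetal values from -0.06 to 0.47. Other genes of this group were the transporters Slc7a2 (cationic amino acids, 1.84 in the mother and -0.10 in the fetus) and Slc38a4 (neutral amino acids, 1.85 and -0.04), Gpt2, an alanine aminotransferase (1.18 and -0.11), and Tdo2, which breaks down tryptophan (1.17 and 0.11). Tdo2 was dim in the fetus, at a control level of 7.01 against 13.59 in the mother.

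Chac1, a glutathione-degrading enzyme of the integrated stress response, was at 1.97 and 1.56 on the maternal arrays and at -0.11, -0.39 and -0.01 in the fetal pairs. It was dim in the fetus, at a control level of 7.67 against 9.17 in the mother. The difference between mother and fetus was 1.93 ± 0.17 (SE). Gadd45g, another growth arrest gene, was at 1.79 in the mother and -0.13 in the fetus, against the opposite signs of Gadd45a. Klf10, a zinc finger repressor that follows glucose and the clock, was at 1.84 and -0.01. Bmper, which binds bone morphogenetic proteins, was at 2.05 and -0.01, Pla2g12a, a secreted phospholipase, at 1.94 and -0.07, and Vsig2, an immunoglobulin-domain membrane protein, at 2.11 and 0.23. Bmper too was dim in the fetus, at a control level of 7.80. Slco1a4, an uptake transporter for organic anions, was at 1.44 and 0.09. C1qtnf4 also met the rule, but its maternal arrays gave 0.40 and 3.44, so its size rests on the dye orientation.

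Among mother-only genes that were lower in FR, Mup3, a major urinary protein that binds pheromones, was at -2.41 and -3.06 on the maternal arrays and at 0.18, 0.27 and -0.01 in the fetal pairs, a difference of -2.89 ± 0.14 (SE, adjusted p = 0.0067). The mother was 6.67-fold below control, and the control level was 17.25 in the mother and 8.36 in the fetus. Mup1 was at -0.92 and -2.86 on the maternal arrays and 0.08 in the fetus, and probes of this family of near-identical genes may not tell its members apart. Saa2, an acute phase serum amyloid, was at -2.83 and -2.24 in the mother and 0.18 ± 0.14 (SD, n = 3) in the fetus, where it was dim (7.58 against 12.93).

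Slc16a6, a monocarboxylate transporter linked to the export of ketone bodies from the liver, was at -2.65 and -2.30 in the mother and at 0.21, 0.30 and 0.15 in the fetal pairs. It was bright in both tissues (13.60 and 12.28), and the difference of -2.70 ± 0.10 (SE, adjusted p = 0.00494) was among those with the least spread. Col3a1 and Col1a1, fibrillar collagens of mesenchymal cells, were at -2.11 and -1.46 in the mother and 0.00 and 0.14 in the fetus. Lgals1, the lectin galectin 1, was at -1.73 and 0.17. Enho, which encodes the peptide hormone adropin, was at -1.08 and 0.19, and Tfrc, the transferrin receptor, at -1.46 and -0.02. Cap1, an actin regulator, met the rule with maternal arrays of -4.33 and -0.13, which disagree.

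The control level in the quiet tissue was compared with that of all genes tested. Among the mother-only genes, 30 of the 170 higher and 45 of the 204 lower had a fetal control level in the lowest 25% of all genes tested (17.6% and 22.1%). Among the fetus-only genes, 7 of 22 and 9 of 31 were in the lowest 25% in the mother (31.8% and 29.0%). A dim signal compresses a ratio towards 0, and its part in these groups was not tested.

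**Figure D3:**
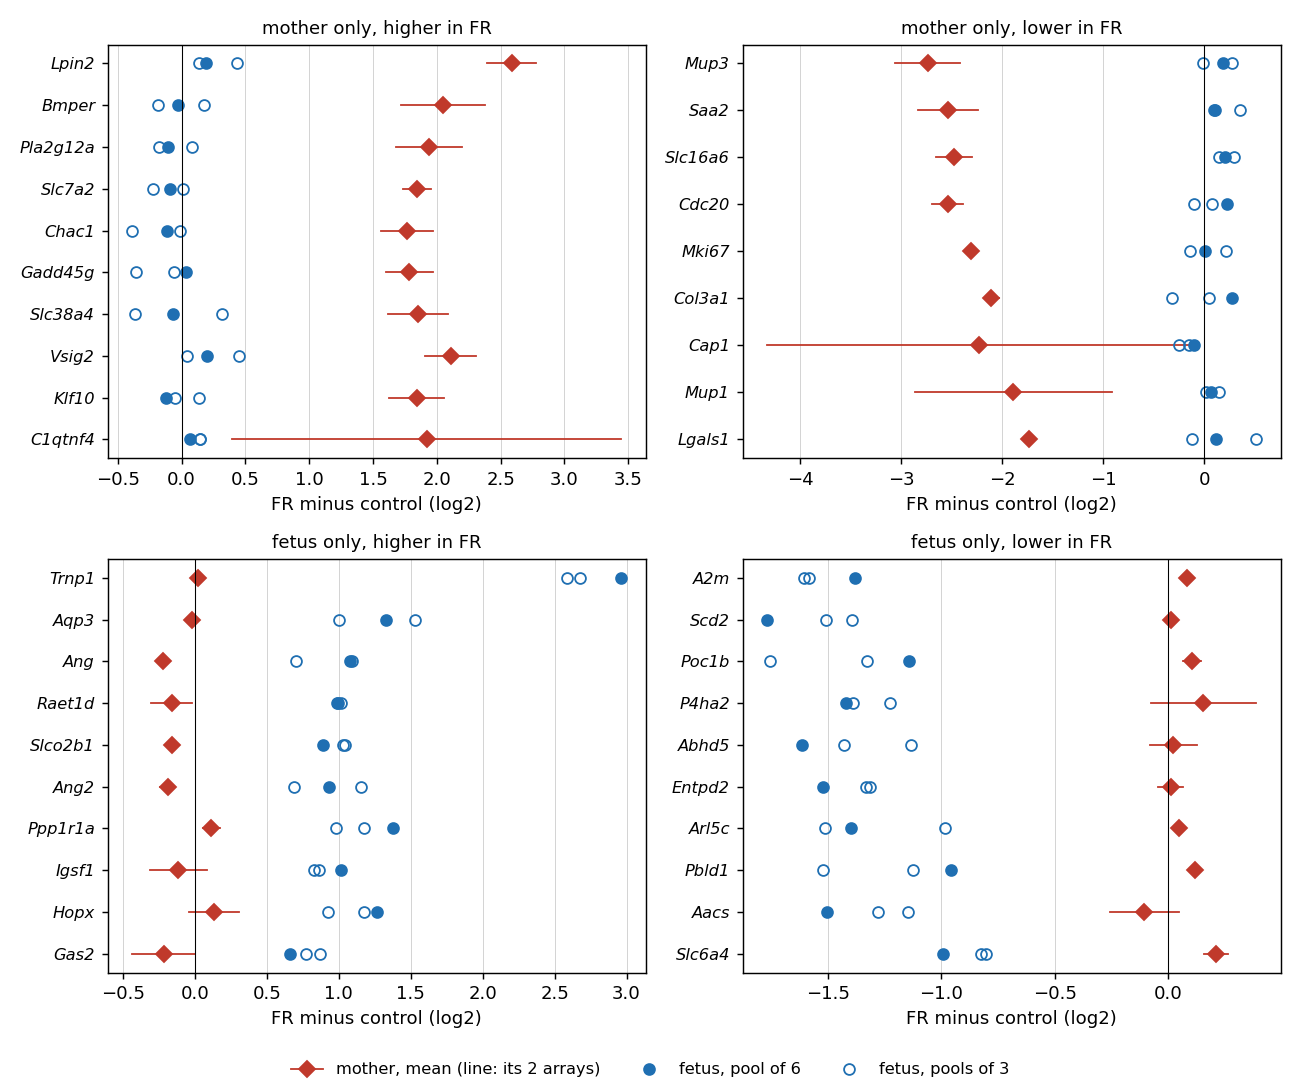
Rows are the genes with a gene symbol that had the largest differences in a group (10, or 9 for mother only, lower); the x axis is FR minus control (log2), with symbols for the maternal mean and its 2 arrays (red) and for the fetal pools of 6 (filled) and of 3 (open). In the upper panels the fetal circles sit near 0 and the maternal diamonds away from it, and in the lower panels the diamonds sit near 0. The rules for the groups set the means in this way.

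Fetus-only genes that were higher in FR were led by Trnp1, a nuclear protein that regulates proliferation of neural progenitors. It was at -0.01 and 0.05 on the maternal arrays and at 2.96, 2.68 and 2.59 in the fetal pairs, which is 6.69-fold above control, with a difference of -2.72 ± 0.17 (SE, adjusted p = 0.00914). Igfbp1, which binds insulin-like growth factors in plasma and is repressed by insulin, had control levels of 15.36 in the mother and 16.05 in the fetus. It was at 0.55 and -0.09 on the maternal arrays and at 1.16, 0.98 and 0.97 in the fetal pairs. The fetal values depended on the dye, at 2.34, 1.81 and 1.70 with FR in Cy5 and at -0.03, 0.16 and 0.24 with FR in Cy3, so single arrays of the tissues overlapped. The difference was -0.81 ± 0.12 (SE, adjusted p = 0.0355), and it ranged from -1.40 to -0.22 over the alternatives tried. Igfbp2, a second binding protein, did not pass, at 1.61 in the mother and 0.68 ± 0.64 (SD, n = 3) in the fetus.

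Aqp3, a channel for water and glycerol, was at -0.02 in the mother and 1.29 in the fetus, with the mother dim at 7.10. Slco2b1, an uptake transporter of organic anions, was at -0.16 and 0.99, Raet1d, a ligand of the NKG2D receptor, at -0.16 and 1.00, and Ppp1r1a, an inhibitor of protein phosphatase 1, at 0.11 and 1.18. Hopx, a homeodomain-only protein, was at 0.13 and 1.12, Igsf1, a membrane glycoprotein, at -0.12 and 0.90, and Gas2, a growth arrest gene of the cytoskeleton, at -0.22 and 0.77. Ang and Ang2, angiogenin ribonucleases of near-identical sequence, were at -0.22 and -0.19 in the mother and 0.96 and 0.93 in the fetus. Slco2b1, Ang and Ang2 were brighter in the mother than in the fetus, at control levels of 13.75 against 8.22 for Slco2b1. Ppp1r1a and Igsf1 were dim in the mother, at 7.19 and 7.01.

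Among fetus-only genes that were lower in FR, Scd2, the stearoyl-CoA desaturase isoform of immature and extrahepatic tissues, was at 0.04 and -0.02 on the maternal arrays and at -1.77, -1.39 and -1.51 in the fetal pairs. The fetal pools were 2.94-fold below control, with a control level of 15.66 in the fetus and 9.15 in the mother, and the difference was 1.57 ± 0.17 (SE, adjusted p = 0.0191). Its adult counterpart Scd1 was below control in both tissues and more so in the mother, at -2.30 and -1.33. Aacs, a cytosolic enzyme that feeds acetoacetate into lipid synthesis, was at -0.10 and -1.31, and Abhd5, the coactivator of adipose triglyceride lipase, at 0.02 and -1.39. A second Abhd5 probe, slightly dimmer, gave -0.41 and -1.51, so its quiet maternal value rests on a single probe.

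A2m, a plasma protease inhibitor, was at 0.07 and 0.09 on the maternal arrays and at -1.38, -1.58 and -1.60 in the fetal pairs. Its control level was 11.18 in the fetus and a dim 7.50 in the mother. P4ha2, a collagen prolyl hydroxylase, was at 0.15 and -1.35, Entpd2, an ectonucleotidase, at 0.01 and -1.39, and Slc6a4, the serotonin transporter, at 0.21 and -0.87. Arl5c, a small GTPase, was at -1.40, -1.51 and -0.98 in the fetal pairs, and Pbld1 at -0.96, -1.52 and -1.12. Arl5c too was dim in the mother, at a control level of 7.74. Poc1b, a centriole protein, was at 0.11 and -1.41, but its dimmer probe gave 0.06 and -0.05. Ltf, the neutrophil protein lactoferrin, was at -0.10 and -1.03 with a control level of 15.14 in the fetus and a dim 7.43 in the mother. It belongs to the same granulocyte markers as Retnlg.

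The largest difference among all genes tested was that of Rgs16, which no rule named and which was chosen after its value was seen. It encodes a regulator of G protein signalling that is known to rise in liver with fasting and with feeding time. It was at 4.77 and 5.15 on the maternal arrays and at 0.62, 0.65 and 0.44 in the fetal pairs. The mother was 31.2-fold above control and the fetus 1.48-fold, and the difference was 4.39 ± 0.12 (SE, adjusted p = 0.00212). Its fetal mean fell just short of the 1.5-fold rule. Lpin1, the glucocorticoid-induced paralog of Lpin2, was above control in both tissues, at 3.90 and 4.31 in the mother and at 1.21, 1.18 and 1.06 in the fetus, a difference of 2.96 ± 0.11 (SE, adjusted p = 0.00494). Further genes with the same direction and a larger maternal value were Trib3, a pseudokinase of the stress response (3.04 and 0.79), Cebpd, a C/EBP transcription factor (2.14 and 0.70), and Angptl4, an inhibitor of lipoprotein lipase (1.91 and 1.05). Saa1 was at -1.50 and -0.68, but a dimmer probe gave -2.44 and 0.00, so its shared direction rests on a single probe.

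The clock and the cell cycle lists had the highest shares of called members. Of 17 measured members of the circadian clock and its output, 6 differed with the mother above the fetus and 3 with the mother below it, 52.9% against 4.32% of all genes tested. The median was 1.19 in the mother and 0.08 in the fetus. The outputs of the D-box family were above control in both tissues with the larger value in the mother. Dbp was at 3.39 and 2.83 on the maternal arrays and at 0.75, 0.72 and 0.65 in the fetal pairs, with a difference of 2.40 ± 0.10 (SE, adjusted p = 0.00494). Tef was at 2.31 in the mother and 0.67 ± 0.01 (SD, n = 3) in the fetus, and Hlf at 1.76 and 1.05.

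Per1 and Per2 encode repressors of the clock. Per1 was at 1.99 in the mother and 0.76 in the fetus, while Per2 was at 1.48 in the mother and at -0.31, -0.46 and -0.10 in the fetal pairs. A second Per2 probe, slightly dimmer, gave 0.15 and 0.05. Usp2, a clock-controlled deubiquitinase, was at 2.92 and 0.49. The activators were lower: Arntl, which encodes BMAL1, was at -1.40 in the mother and -0.60 in the fetus, and its partner Clock at -0.86 and 0.08. Nfil3, the repressor of D-box genes, was at -2.85 and -2.59 on the maternal arrays and -0.35 ± 0.18 (SD, n = 3) in the fetus, a difference of -2.37 ± 0.16 (SE, adjusted p = 0.00960). Nr1d2 and Cry2, repressors that were above control in both tissues, did not differ past the threshold (1.76 and 1.36 for Nr1d2, 1.33 and 0.90 for Cry2). The probes of Nr1d1, another repressor, disagreed: the brightest, which was tested and did not pass, gave 0.05 in the mother and 0.18 in the fetus, a second of nearly the same brightness 1.65 and 1.11, and the third 0.11 and 0.09.

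The promoters of these genes were searched for the E-box CACGTG, the element bound by the CLOCK and BMAL1 pair, in windows from 250 bases before to 50 after the RefSeq start (build GRCm38.p6, both strands). Windows were at hand for 11553 of the 17669 genes tested. The E-box was in the windows of 20 of 126 mother-only higher genes (15.9%), 7 of 143 mother-only lower genes (4.9%), 3 of 14 clock genes, 1092 of the 11553 tested genes (9.45%) and 7.24% of all 27025 windows. In the mother-only higher genes the other motifs searched were in 0.794% (D-box, TTATGTAA or TTACGTAA), 8.73% (heat shock element, GAANNTTC), 2.38% (sterol element, TCACNCCAC), 8.73% (glucocorticoid receptor, AGAACA), 0.794% (CRE, TGACGTCA) and 15.1% (PPAR, AGGTCA). Among all genes tested these shares were 0.762%, 6.01%, 1.1%, 13.7%, 2.91% and 13.2%. The upstream 250 bases are printed for the called clock genes whose window holds the E-box, Per1 (chr11:69098699-69098948) and Tef (chr15:81802423-81802672), and for Lpin2 (chr17:71183282-71183531) and Gadd45g (chr13:51846425-51846674) of the mother-only genes, all on the plus strand, with the E-box in capitals.
Per1: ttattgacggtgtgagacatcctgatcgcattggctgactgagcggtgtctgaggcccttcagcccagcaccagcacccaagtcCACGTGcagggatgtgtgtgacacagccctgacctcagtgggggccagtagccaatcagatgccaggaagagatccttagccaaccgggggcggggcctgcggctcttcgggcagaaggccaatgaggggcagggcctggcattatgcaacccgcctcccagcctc
Tef: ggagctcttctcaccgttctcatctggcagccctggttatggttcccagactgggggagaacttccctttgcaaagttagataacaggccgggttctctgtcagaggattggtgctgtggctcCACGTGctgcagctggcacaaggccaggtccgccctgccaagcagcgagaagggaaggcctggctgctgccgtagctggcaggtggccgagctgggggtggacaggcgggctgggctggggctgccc
Lpin2: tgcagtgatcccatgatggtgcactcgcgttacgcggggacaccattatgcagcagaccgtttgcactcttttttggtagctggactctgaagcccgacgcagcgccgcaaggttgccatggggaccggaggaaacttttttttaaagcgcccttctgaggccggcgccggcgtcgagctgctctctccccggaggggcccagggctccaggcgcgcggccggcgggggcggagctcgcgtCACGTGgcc
Gadd45g: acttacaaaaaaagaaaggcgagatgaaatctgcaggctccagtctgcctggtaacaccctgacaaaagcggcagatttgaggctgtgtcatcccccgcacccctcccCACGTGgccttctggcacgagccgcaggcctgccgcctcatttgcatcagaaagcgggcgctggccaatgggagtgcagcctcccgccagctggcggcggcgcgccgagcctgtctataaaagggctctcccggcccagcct
The first base of the E-box lay at -166 in Per1, -127 in Tef, -9 in Lpin2 and -142 in Gadd45g, counted from the start site. These matches describe letters in a window and do not show binding.

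Genes of the cell cycle and DNA replication were mostly lower in the FR mothers and close to control in the fetuses. Of 32 measured members, 16 differed with the mother below the fetus and 1 with the mother above it, 53.1% in all against 4.32% of all genes, and the list median was -0.74 in the mother and 0.04 in the fetus. Cdc20, an activator of the anaphase-promoting complex, was at -2.69 and -2.39 on the maternal arrays and at 0.23, 0.08 and -0.10 in the fetal pairs, a difference of -2.61 ± 0.15 (SE, adjusted p = 0.00779). Mki67, the proliferation antigen Ki-67, was at -2.31 and 0.03, and Ccna2, cyclin A2, at -1.58 and 0.22. Their maternal control levels were 10.04, 10.30 and 9.18, against 13.01, 15.37 and 13.60 in the fetus. The replication helicase genes Mcm4, Mcm5 and Mcm6 were also called, at -0.71, -0.95 and -0.94 in the mother. Ccne1, cyclin E1, was the member called the other way, at 0.86 and 0.20.

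The erythroid markers, another set of dividing cells, had medians of -0.004 in the mother and 0.12 in the fetus over 18 measured genes. The log2 of their summed intensities went from 15.66 to 15.28 in the mother and from 18.73 to 19.01 in the fetus. Of the Kupffer cell and macrophage markers, 9 of 24 were past 1.5-fold below control in the mother against 4 in the fetus. All genes tested had 1025 and 574 of 17669. For these 24 markers the log2 of the summed intensities went from 16.12 to 15.85 in the mother and from 16.63 to 16.68 in the fetus. Of the mesenchymal markers, 6 of 18 were past 1.5-fold below control in the mother and 1 in the fetus. Their part in the cell cycle values was not tested.

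**Figure D4:**
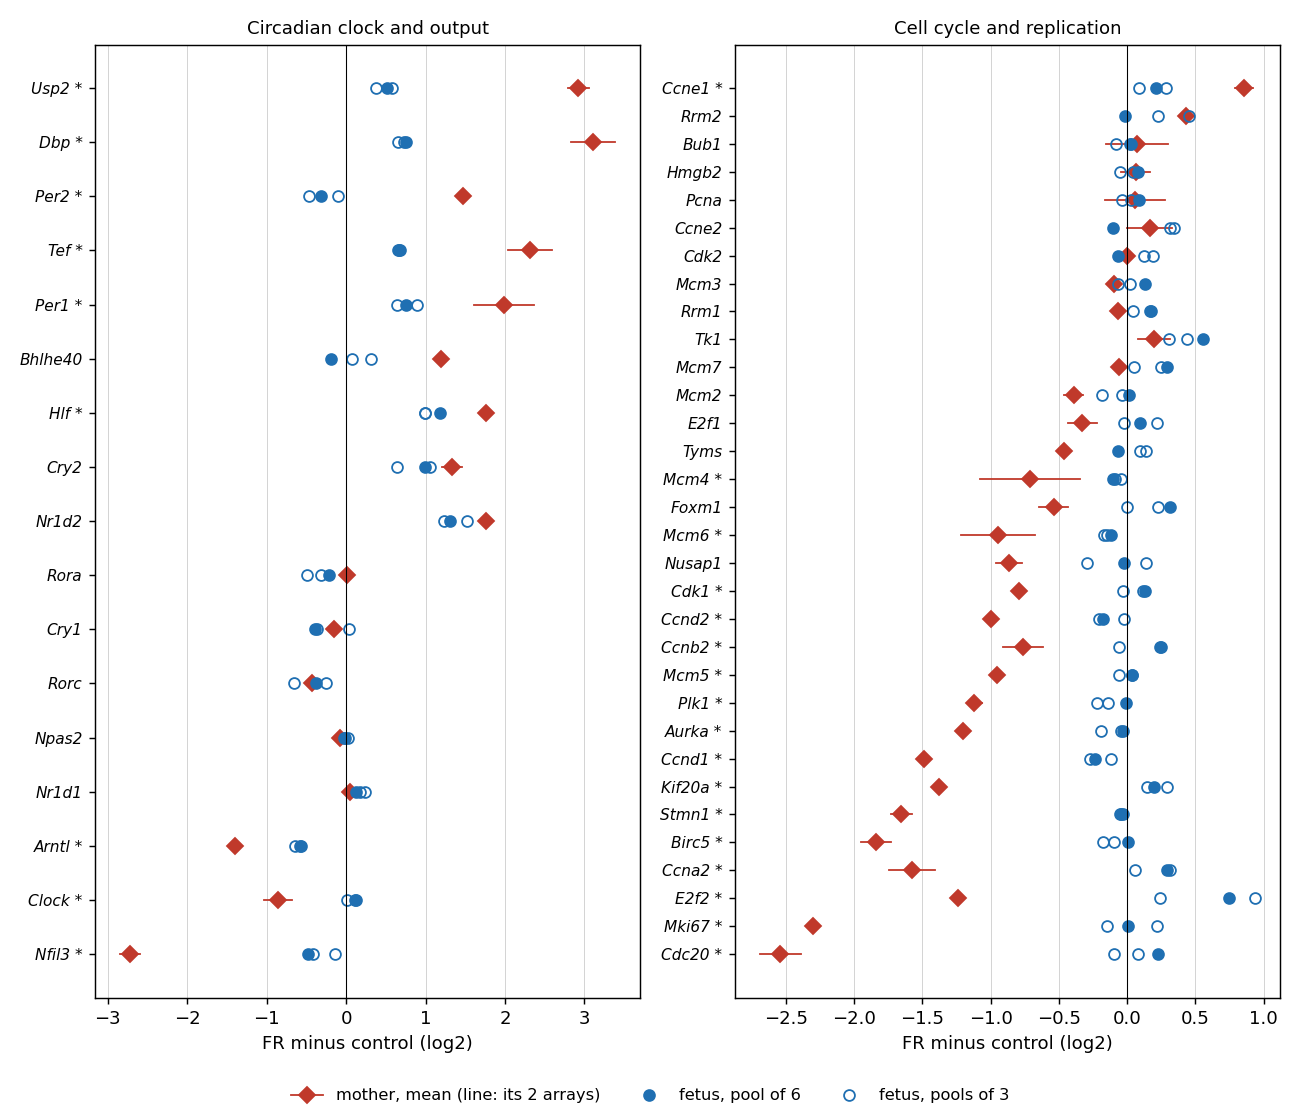
Rows are the 17 measured clock genes (left) and 32 cell cycle genes (right), ordered by the maternal minus fetal difference; the x axis is FR minus control (log2), with the maternal mean and its 2 arrays in red and the fetal pools of 6 (filled) and 3 (open) in blue. A star marks an adjusted p under 0.05, 9 genes on the left and 17 on the right.

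Among 23 measured glucocorticoid targets, 5 differed with the mother above and 4 with the mother below (39.1% against 4.32%), although the list medians were near each other at 0.87 and 0.84. In the mother 19 of the 23 values were above 0 and in the fetus 22, against 8912 and 9136 of 17669 genes tested. Those with the larger maternal value were Lpin1, Cebpd, Per1, Tdo2 and Angptl4. Those with the larger fetal value were Sgk1, G6pc, Igfbp1 and Cdkn1a. G6pc, the catalytic subunit of glucose-6-phosphatase and the last step of glucose release, was at -0.49 on both maternal arrays and at 0.75, 1.14 and 0.75 in the fetal pairs, a difference of -1.37 ± 0.19 (SE, adjusted p = 0.0311). Its maternal change was below the 1.5-fold rule. Tat, tyrosine aminotransferase, was above control in both, at 0.81 (arrays 1.46 and 0.16) and 2.05, and did not pass (adjusted p = 0.0636). Fkbp5 (1.14 and 0.47) and Tsc22d3 (0.39 and 0.76), widely used readouts of glucocorticoid receptor activity, did not pass either.

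Fatty acid oxidation and ketogenesis gave 2 called genes of 35 measured (5.7%, close to the 4.32% of all genes), Cyp4a10 and its neighbour in the family Cyp4a31 (1.05 and 1.56 on the maternal arrays, -0.49 in the fetus), both with the mother above. Cyp4a14 was above control in both tissues, at 2.93 and 1.18 ± 0.94 (SD, n = 3). Pdk4, which spares glucose by inhibiting pyruvate dehydrogenase, was at -0.41 and 0.75 (adjusted p = 0.102). Cpt1a, the carnitine carrier step of mitochondrial oxidation, had 0.39 and 0.53.

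Of 22 fatty acid and triglyceride synthesis genes, 3 differed each way (27.3% in all, against 4.32% of all genes), and the list medians were -0.62 and -0.41. With the mother below were the desaturases and elongase Scd1, Fads1 and Elovl5, and with the mother above were Scd2, Gpam (0.65 and -0.22), the first acyltransferase of triglyceride synthesis, and Dgat1 (0.43 and -0.28), the last. Fasn (-0.64 and -0.87), Srebf1 (-0.41 and -0.59) and Pnpla3 (-0.93 and -1.28) were below control in both tissues and did not differ past the threshold. Of 25 cholesterol genes, 3 were called (12% against 4.32% of all genes), all with the mother below: Idi1 (-1.56 and -0.19), Acat2 (-1.08 and -0.31) and Hmgcs1 (-1.25 and -0.57). The Hmgcs1 call rests on a single probe: the others that passed the filter gave -0.56 and -0.51 for one and -0.79 and -0.96 for the next.

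The integrated stress response had 5 called genes of 26 (19.2%, against 4.32% of all genes), all with the mother above: Trib3, Chac1, Stbd1, Cebpb (1.91 and 0.29) and Asns, asparagine synthetase (1.06 and 0.21). The heat shock list had 4 of 30 (13.3%, against 4.32% of all genes), all with the mother below and all mother-only: the chaperone Hsp90aa1 (-1.54 and -0.23), the cochaperones Bag3 (-0.95 and -0.12) and Fkbp4 (-0.81 and -0.06), and the small heat shock protein Hspb8 (-0.68 and 0.14). Dimmer probes gave -0.38 and 0.02 for Bag3 and -1.16 and -0.47 for Fkbp4, so the mother-only label of both rests on a single probe. The inducible Hspa1a was at -0.29 and -1.08 and did not pass (adjusted p = 0.0889). The heat shock element GAANNTTC was in the windows of 10 of 25 members (40%), against 6.01% of all genes tested. The metallothioneins Mt1 (1.19 and 1.18) and Mt2 (1.66 and 1.42) did not pass, with 95% intervals of the difference from -0.67 to 0.69 and from -0.43 to 0.90. Of the 23 measured members of their list, 4 were called (17.4%, against 4.32% of all genes), all with the mother below. Among them were Gsta4 (-0.41 and 0.53) and Slc30a10 (-1.18 and 0.19).

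In insulin, IGF and leptin signalling, 2 of 28 differed with the mother above (Trib3 and Trib1) and 3 with the mother below (Igfbp1, Stat5a and Stat5b), 17.9% in all against 4.32% of all genes. Stat5a and Stat5b carry growth hormone and prolactin signals, and Stat5a was at -0.88 and 0.26. Lepr, the leptin receptor, was at 1.32 and 1.58 on the maternal arrays and at -0.61, -0.40 and 0.17 in the fetal pairs. The maternal arrays lay above all fetal pairs, but the difference of 1.73 ± 0.30 (SE) missed the threshold at an adjusted p of 0.0507, and it passed in 6 of 17 alternatives. Igf1 (-0.50 and -0.18) and Igf2 (-0.03 and 0.16) did not pass. Among secreted hormones Gdf15, a stress-induced hormone, was called at -1.01 and 0.27, while Hamp, the iron hormone hepcidin, was at 0.21 and 1.66 ± 0.81 (SD, n = 3) and did not pass. Fgf21 was not well above background on all arrays.

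Xenobiotic metabolism had 8 called members of 30 (26.7%, against 4.32% of all genes), 3 with the mother above and 5 below. Sult1e1, the estrogen sulfotransferase, was at 2.60 and 0.51, Por, the electron donor of all microsomal P450 enzymes, at 1.87 and 0.57, and Cyp2a5 at -0.42 in the fetus and at 2.22 and 0.38 on the maternal arrays, so its size depends on the dye. Gstm1 and Gstm3, very bright glutathione transferases, were called with the mother below at -0.44 and -0.56, but the maternal arrays disagreed, at 0.63 and -1.51 for Gstm1 and 0.03 and -1.15 for Gstm3. Alb had the same disagreement (1.08 and -1.08) and was not called. Of 21 bile acid genes 3 were called (14.3%, against 4.32% of all genes): Slco1a4, the canalicular pump Abcc2 (0.59 and -0.07) and, with the mother below, the hydroxylase Cyp7b1 (-0.58 and 0.17). Cyp7a1, the rate-limiting enzyme of bile acid synthesis, was at -0.97 and -0.24 and did not pass.

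No member was called by limma in the lists of interferon-stimulated genes (36 measured), ribosomal proteins (45), oxidative phosphorylation (50) and proteasome (33). At an unadjusted p under 0.05 they held 4, 17, 13 and 5 genes, or 11.1%, 37.8%, 26.0% and 15.2%, against 22.8% of all genes tested. Interferon-stimulated genes had medians of -0.97 in the mother and -0.94 in the fetus. Past 1.5-fold below control were 27 of 36 maternal and 30 of 36 fetal values, against 1025 and 574 of 17669 over all genes tested. Ribosomal protein genes had medians of 0.44 and 0.23, with the difference above 0 for 44 of 45, against 8919 of 17669 genes tested. None of the 45 passed singly, and genes read on the same pool pairs are not independent.

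**Figure D5:**
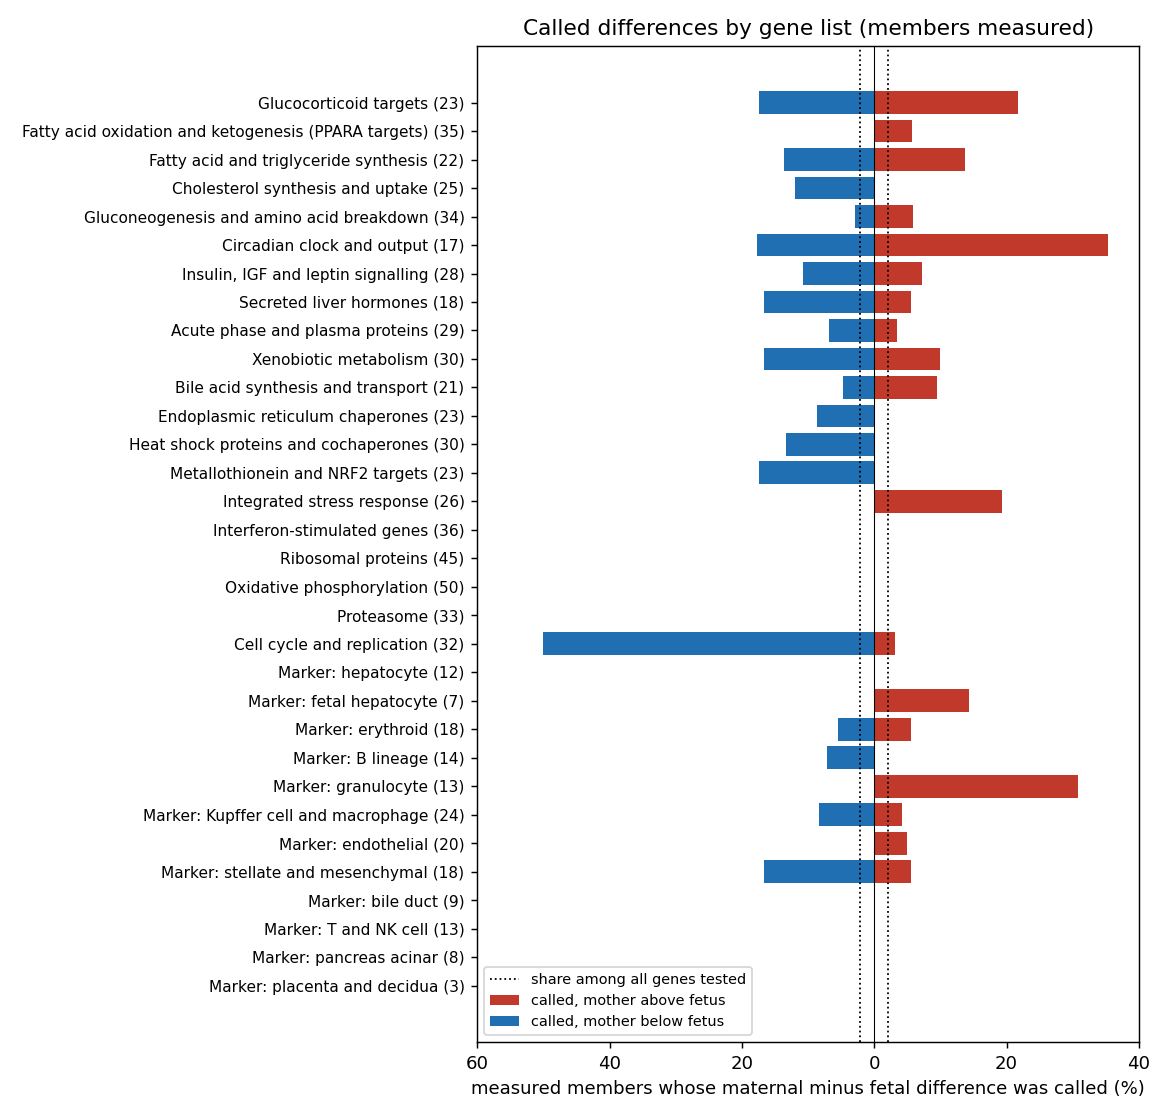
Bars give, for each gene list (number of members measured in brackets), the percent of measured members whose maternal minus fetal difference was called, with the mother above the fetus to the right (red) and below it to the left (blue); the dotted lines mark 2.14% and 2.18%, the shares among all genes tested. The cell cycle list reaches farthest left and the clock list farthest right.

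Cell type markers were read beside these values. Of 13 measured granulocyte markers, 4 differed (30.8% against 4.32% of all genes tested), all with the mother above: Retnlg, S100a9 (0.37 and -0.71), S100a8 (0.27 and -0.66) and Ltf. In the mother Retnlg and Ltf were dim, at control levels of 7.55 and 7.43. The log2 of the summed intensities of the 13 markers went from 15.53 to 15.92 in the mother and from 18.92 to 18.28 in the fetus. Bright members such as S100a9 and S100a8 (fetal control levels 17.18 and 16.46) weigh more in this sum than dim ones. Past 1.5-fold below control were 6 of 13 in the fetus against 1 in the mother, where all genes tested had 574 and 1025 of 17669. S100a9 gave 0.19 and 0.55 on the maternal arrays, but its fetal values depended on the dye, at 0.50, 0.01 and 0.11 with FR in Cy5 and at -1.84, -1.53 and -1.47 with FR in Cy3. Retnlg, Ltf and S100a8 were below control on all 6 fetal arrays. B lineage markers were below control in both tissues (medians -0.32 and -0.67, 14 measured), with Dntt called with the mother below (-1.14 and 0.03). None of the 12 hepatocyte, 9 bile duct, 13 T and NK cell, 8 pancreas and 3 placental markers was called by limma, against 4.32% of all genes tested. Lists this short would hold few calls at that share. In limma 4, 3, 2, 2 and 1 of them had an unadjusted p under 0.05. These are 33.3%, 33.3%, 15.4%, 25% and 33.3%, against 22.8% of all genes tested. All 8 pancreas markers were above control in the fetal mean, against 9136 of 17669 genes tested. Their median was 0.57 in the fetus and 0.01 in the mother. Klf1, an erythroid transcription factor, was at 0.88 and -0.47, and Vwf, an endothelial clotting factor, at 1.31 and -0.34. Both went against most of their lists. The difference was above 0 for 6 of 18 erythroid markers, against 8919 of 17669 genes tested, and Tfrc was at -1.46 and -0.02. The 20 endothelial markers had medians of -0.22 and -0.20, with 3 maternal values above 0, against 8912 of 17669 genes tested. Afp was at 0.80 in the mother, where it was dim, and -0.35 in the fetus, where the dyes disagreed (0.83, 0.45 and 0.27 with FR in Cy5, -1.11, -1.15 and -1.42 with FR in Cy3). The macrophage markers C1qa (-0.66 and -0.06) and Adgre1 (-1.15 and -0.46) were called with the mother below. The mesenchymal genes Pdgfra (0.71 and 0.15) and Lum (-0.76 and -0.16) were called in different directions.

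Some genes could be read in a single tissue. In the fetus 367 genes were well above background on all arrays while no probe of theirs was so on any maternal array, and 11 of these had a mean past 1.5-fold higher and 17 lower, with the same sign on every fetal array. The lower ones included Slfn4 (-1.79), Rag1 (-1.03), Irf4 (-0.96), Mcpt8 (-1.17) and Mmp8 (-0.81), and the higher ones Slc7a3 (1.06). In the mother 14 genes were read alone, of which Chrdl2 (1.35) and Orm3 (1.26) were higher and Mup6 (-1.63), Slc22a28 (-1.34) and A1bg (-0.61) lower. No contrast between tissues could be formed for these.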

How the data were processed

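Scanner files of 8 Agilent 44K arrays were used. Per the file headers, they hold intensity values for spot and local background in Cy3 and Cy5 from Agilent Feature Extraction (9.5.3.1 in the submitters' processing notes, a later version in the slide 2 headers). The log10 ratios of red over green deposited by the authors served as an alternative. Log2 ratios were computed here with limma 3.58.1 in R 4.3.3: normexp (offset 50), loess within each array, turned to FR minus control, population outliers and control spots left out. Spot means were used on slide 1 and medians on slide 2, whose files lack means. Spots marked non-uniform were kept, because slide 1 carries the marks on most bright spots. A probe had to be well above background for both diets on all 8 arrays, which 25468 of 41174 probes were, and a gene was read from its brightest such probe. Dye swaps were averaged to 4 pool pairs. The fit (lmFit, eBayes) was tested on simulated data. Control levels are single-channel log2 intensities after Aquantile. Errors are the SD over fetal pairs or the SE of the fit. Gene names and promoters are from RefSeq (GRCm38.p6), which matched 27027 probes by accession and 5807 by symbol, older symbols included.

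Genes were named if they had the 10 largest differences of a group in each direction, the 4 largest called in a list, or stood on a fixed set of metabolic genes. Further list members, and genes read in a single tissue, were named with their values in view. Some genes that these rules name are not reported here. The comparison, the groups and the lists were chosen with earlier results of these data known. The descriptions of the arrays mention rat hippocampus and call the swapped array another pool; the titles were followed. Whether pool pairs are independent samples is not stated, so p-values measure only the spread between them.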

Additional observations from a re-analysis of the deposited data

Results flagged for a closer look

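The maternal and the fetal effect of FR differed by the test of the difference itself for 764 genes, of which 374 were mother-only, 53 fetus-only and 18 opposite. The genes with opposite directions are given here by their maternal minus fetal difference (log2). Lower in the mother and higher in the fetus were Sult2a6 (-4.26), Sult2a4 (-2.72), Klhl13 (-2.05), Sgk1 (-2.04), E2f2 (-1.88), Cnksr3 (-1.53), Cyp2b9 (-1.48) and Gadd45a (-1.46). Higher in the mother and lower in the fetus were Pfkfb3 (2.36), Cyp4a10 (2.04), Stbd1 (1.65), Retnlg (1.61), Itpka (1.57), Tmem9 (1.56), Trib1 (1.44), Eno1 (1.26) and Lpcat3 (1.24). Dimmer probes that passed the filter gave smaller differences for Stbd1 (0.14 and 0.21), Pfkfb3 (0.41), Klhl13 (-0.27), Tmem9 (0.65) and Cyp2b9 (-0.86). Those of Cyp4a10 (1.84 to 1.99) and Cnksr3 (-1.77 and -1.44) were close to the values above. Groups of 3 pool pairs are too small for a search for outlying samples.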

How the results depend on the processing

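The counts of called, mother-only, fetus-only and opposite genes were 764, 374, 53 and 18. They were 247, 108, 17 and 14 with median centring in place of loess, where 61.5% of the called genes had the mother above against 49.6%, then 73, 66, 0 and 0 with arrays scaled to each other, 209, 127, 14 and 1 without non-uniform spots, 1466, 659, 98 and 41 with the deposited ratios, and 45, 28, 1 and 3 at an adjusted p under 0.01. With slide as a block all 4 counts were 0. Leaving out 1 fetal pair gave 0 to 1303 called, 0 to 454 mother-only, 0 to 168 fetus-only and 0 to 39 opposite genes; all were 0 without the fetal pool of 6, and 1303 came without the second pool of 3. A 1.4-fold rule gave 30 opposite genes, a 2-fold rule 148 mother-only, 20 fetus-only and 1 opposite gene, and a quiet limit of 1.1-fold 243 mother-only genes. Fewer genes tested or fewer pairs enter some of these; otherwise the cause was not tested. An offset of 10, outlier spots kept, a filter on 1 diet or none, spot medians, the mean over probes and single dye orientations gave between 650 and 1064 called genes. Signs turned for Igf1 without non-uniform spots (1.38, another probe), for Gstm1 (0.22) and S100a9 (-0.0105) with FR in Cy5 only, and for Cap1 (0.0509) with FR in Cy3 only. Small differences that did not pass also crossed 0, among them Pnpla3 (-0.55) and Nr1d1 (0.0086) with the deposited ratios, Cpt1a (0.0715) with median centring, Igf2 (0.18), Mt2 (-0.13) and Mt1 (-0.24) with FR in Cy3 only, and Nr1d1 (0.32) and Mt1 (-0.19) without the second fetal pool of 3. No alternative moved the median difference of all genes by over 0.1. This is no check, because loess or median centring of each array already brings that median near 0. No paired analysis was possible because the mother has a single pool pair and the labels tie no maternal pool to a fetal one. Dim probes limit the low end, and 1 maternal pair allows no spread between mothers.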
